A study of Mus musculus with 16 samples.

Results

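The receptors for extracellular nucleotides and adenosine were described in bone marrow derived macrophages (BMDMs) by their mRNA. The 10 genes were those whose symbol in the gene count table was P2rx4, P2rx7, P2ry2, P2ry6, P2ry12, P2ry13, P2ry14, Adora2a, Adora2b or Adora3, out of 22287 genes in the table. All 10 passed the filter on low counts that left 12514 genes for testing. Bone marrow of 8-week-old C57BL/6J mice was cultured for 7 days with GM-CSF (GM) or with M-CSF (M), which are growth factors that drive marrow cells into macrophages of different character. The cells were grown on tissue culture treated dishes (TC) or on untreated dishes (noTC) and received LPS, the endotoxin of Gram-negative bacteria, for 3 h or vehicle. The 8 groups of 2 replicates were the 4 cultures given vehicle (steady state), named by growth factor and dish such as GM-TC and M-noTC, and the same 4 with LPS, whose names end in LPS. All groups shared the strain, the tissue and the culture time. A GM or M culture is a mixed marrow culture rather than a sorted cell type, and nothing in the labels says whether libraries with the same replicate number came from the same mouse.

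ATP and other nucleotides leave stressed or dying cells and act on neighbouring cells as danger signals. P2X receptors are ion channels that ATP opens, and P2Y receptors are G protein-coupled receptors for ATP, ADP, UTP, UDP or UDP-sugars. Enzymes on the cell surface break ATP down to adenosine, which acts on its own receptors, and in macrophages those encoded by Adora2a and Adora2b raise cAMP and dampen inflammatory output, while P2rx7 is the ATP receptor best known for switching on the NLRP3 inflammasome.

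Total counts lay between 17527802 and 31458363 per library, so that 3 counts correspond to between 0.0954 and 0.171 CPM (counts scaled to the library total), a limit that covers counting error only. Levels are given as CPM scaled by edgeR's TMM factors, library by library. Levels of marker genes, and those behind the subtraction below, are CPM of the library total alone, without these factors. The factors were 1.11 to 1.39 in vehicle libraries and 0.778 to 0.842 in LPS libraries. With library size only, the median log2 fold change of all genes upon LPS challenge lay between -0.83 and -0.53, and 19.0% to 21.5% of the called genes were higher, against 48.9% to 50.9% with TMM scaling. All 8 macrophage markers listed had counts in every group. Summed CPM of 10 heart muscle markers were 25.3 to 88.2 in the 4 vehicle libraries on TC dishes and 0.374 to 1.32 in the other 12. In the noTC libraries at steady state, some transcripts abundant in other libraries were at a low level, and the cause was not tested. Over 15 genes in GM and 21 in M that stayed below 1 CPM on TC dishes without LPS and reached 100 CPM elsewhere, their level was 0.675% and 0.600% of the mean of the other libraries. Subtracting this share from their counts is an alternative that does not show where the reads came from. It kept 89 of 90 calls on the receptor genes. Where it moved a called value by over 1.5 times, the value is given. Uncalled differences of Adora2a that involve M-noTC also moved. The replicates of GM-TC differed most, with a chi-square of 12.4 per degree of freedom, against 1.90 to 5.11 in the other groups.

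Several of these genes lie side by side in the genome. Coordinates are from the GENCODE M21 annotation of GRCm38, and the build behind the counts is not given in the sources used here. P2ry14 (chr3:59113855-59153618), P2ry13 (chr3:59207892-59210882) and P2ry12 (chr3:59216272-59262871) follow each other on the minus strand of chromosome 3, inside the gene Med12l on the opposite strand. Exons of Med12l share at most 9 bases with theirs, and it had 8 to 100 counts per library. The kit does not mark strand, so reads over shared bases cannot be told apart. P2rx7 (chr5:122643911-122691432) and P2rx4 (chr5:122707544-122729738) are neighbours on the plus strand of chromosome 5, and P2ry6 (chr7:100937630-100974649) and P2ry2 (chr7:100996568-101012866) on the minus strand of chromosome 7. Adora2a (chr10:75316877-75334784), Adora2b (chr11:62248984-62266453) and Adora3 (chr3:105870858-105908926) lie apart from each other. Adora3 shares 779 bases of exon with Tmigd3 on the same strand, to which 0 to 8 counts per library were assigned, so the split of reads between them is uncertain.

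The 250 bases before the transcription start of 5 of the genes are printed from RefSeq's promoter table (GRCm38.p6), 5′ to 3′ in the direction of the gene. They are the 3 neighbours of chromosome 3, of which P2ry13 and P2ry14 rose upon LPS challenge and P2ry12 did not, and the adenosine receptors Adora2b and Adora3, which moved in opposite directions in GM. Capitals mark matches on either strand (a match on the other strand reads as its reverse complement) to AP-1 (TGANTCA), the hypoxia response core (ACGTG) or the ETS and PU.1 core (AGGAAGT). P2ry14 has 4 starts in the table, and the one shown is the farthest upstream. The RefSeq start of Adora3 lies within the GENCODE span given above, far from the start of that span.
P2ry12 (chr3:59262986-59263235, minus strand): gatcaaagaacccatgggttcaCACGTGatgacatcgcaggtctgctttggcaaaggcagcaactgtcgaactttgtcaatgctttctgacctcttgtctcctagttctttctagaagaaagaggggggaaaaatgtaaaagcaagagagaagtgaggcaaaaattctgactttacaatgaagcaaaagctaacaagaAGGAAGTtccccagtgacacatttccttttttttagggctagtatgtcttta
P2ry13 (chr3:59210883-59211132, minus strand): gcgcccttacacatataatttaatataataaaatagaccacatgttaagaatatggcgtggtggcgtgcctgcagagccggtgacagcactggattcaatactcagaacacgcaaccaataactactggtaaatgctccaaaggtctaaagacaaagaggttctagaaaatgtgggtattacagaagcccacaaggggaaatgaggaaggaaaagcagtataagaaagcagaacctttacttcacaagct
P2ry14 (chr3:59153493-59153742, minus strand): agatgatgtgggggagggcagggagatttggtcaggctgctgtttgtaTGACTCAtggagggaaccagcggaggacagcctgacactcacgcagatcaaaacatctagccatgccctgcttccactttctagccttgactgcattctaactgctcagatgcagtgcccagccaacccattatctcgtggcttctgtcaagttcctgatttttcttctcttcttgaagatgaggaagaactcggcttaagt
Adora2b (chr11:62248734-62248983, plus strand): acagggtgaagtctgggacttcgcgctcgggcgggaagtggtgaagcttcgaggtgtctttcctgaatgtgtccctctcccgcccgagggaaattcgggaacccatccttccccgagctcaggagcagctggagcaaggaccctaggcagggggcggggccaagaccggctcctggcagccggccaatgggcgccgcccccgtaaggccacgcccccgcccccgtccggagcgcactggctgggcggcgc
Adora3 (chr3:105904171-105904420, plus strand): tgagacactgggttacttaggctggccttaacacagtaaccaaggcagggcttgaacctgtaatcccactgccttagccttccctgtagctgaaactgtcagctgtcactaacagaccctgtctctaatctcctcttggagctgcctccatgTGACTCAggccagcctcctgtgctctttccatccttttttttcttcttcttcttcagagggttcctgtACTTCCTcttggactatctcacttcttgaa
The table held 13 promoters of 8 of the 10 genes, counted over the whole window that ends 50 bases after the start, and 32851 promoters in all. AP-1 matched in 4 of the 13, which belong to P2rx7, P2ry14 and Adora3, and in 7.81% of all promoters. The hypoxia response core matched in 3, of P2ry2 and P2ry12, and in 19.6% of all, and the ETS and PU.1 core in 3, of P2rx7, P2ry12 and Adora3, and in 9.35% of all. The NF-kB consensus, the ISRE core (GAAA, any 2 bases, GAAA) and the CRE (TGACGTCA) were in none of the 13 windows, and in 4.51%, 3.44% and 1.79% of all promoters. A match describes the letters only.

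Levels between genes were compared as CPM per kb of exon. The length joins all exons of a gene in GENCODE M21, such as 1.845 kb for Adora2b and 11.06 kb for P2ry14. The ranks, shares and sums depend on it. By CPM alone, P2rx4 was above P2ry6 in M-TC (165 against 128) and M-noTC (123 against 118). It was also above Adora2a in M-TC-LPS (166 against 128), and P2ry14 was above Adora2b in GM-TC-LPS (424 against 76.3). Per kb, the highest receptor mRNA in M cells at steady state was P2ry6, a receptor for UDP. It was at 44.3 CPM per kb in M-TC and 41.0 in M-noTC, or 44.2% and 50.5% of the sum over the 10 genes. In GM-TC the highest was P2rx4 at 22.5 CPM per kb, followed by P2ry6 at 19.3, and in GM-noTC these were at 20.6 and 22.5. Adora2a was the lowest of the 10 in all 4 steady state groups, at 0.0835 to 0.728 CPM per kb. Upon LPS challenge it was the highest in M-TC-LPS and M-noTC-LPS, at 41.9 and 33.5 CPM per kb, or 34.0% and 34.7% of the sum. In GM-TC-LPS and GM-noTC-LPS, Adora2b led with 41.3 and 48.5 CPM per kb, followed by Adora2a with 39.6 and 39.0 and P2ry14 with 38.4 and 36.5. The sum of the 10 genes was 86.6 and 88.9 CPM per kb in GM-TC and GM-noTC and 179 and 187 with LPS. In M-TC and M-noTC it was 100.2 and 81.2, and 123 and 96.5 with LPS. These are means of 2 libraries, given as a description. The sums also depend on the TMM factors, which were 1.11 to 1.39 in vehicle libraries and 0.778 to 0.842 in LPS libraries. By CPM of the library total alone, the sums of M were lower with LPS than with vehicle. Those of GM were higher with LPS under either scaling.

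**Figure D1:**
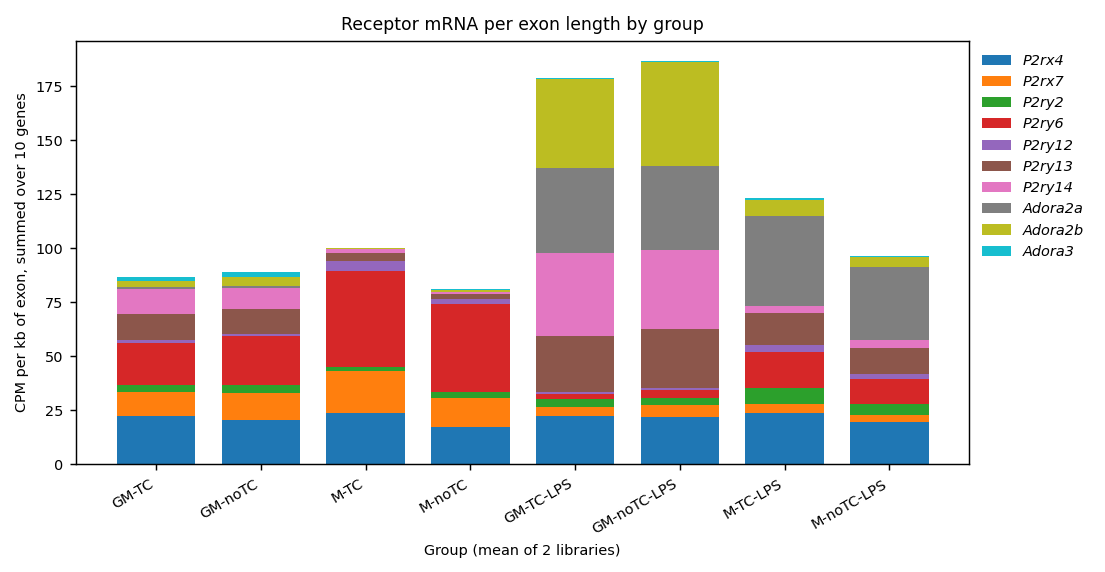
Stacked bars of the level of each receptor gene in CPM per kb of exon (y axis, linear from 0), mean of 2 libraries, in the 8 groups (x axis). P2ry6 takes 44.2% and 50.5% of the bars of M-TC and M-noTC, while Adora2a and Adora2b, thin at steady state, make up much of the bars upon LPS challenge.

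**Figure D2:**
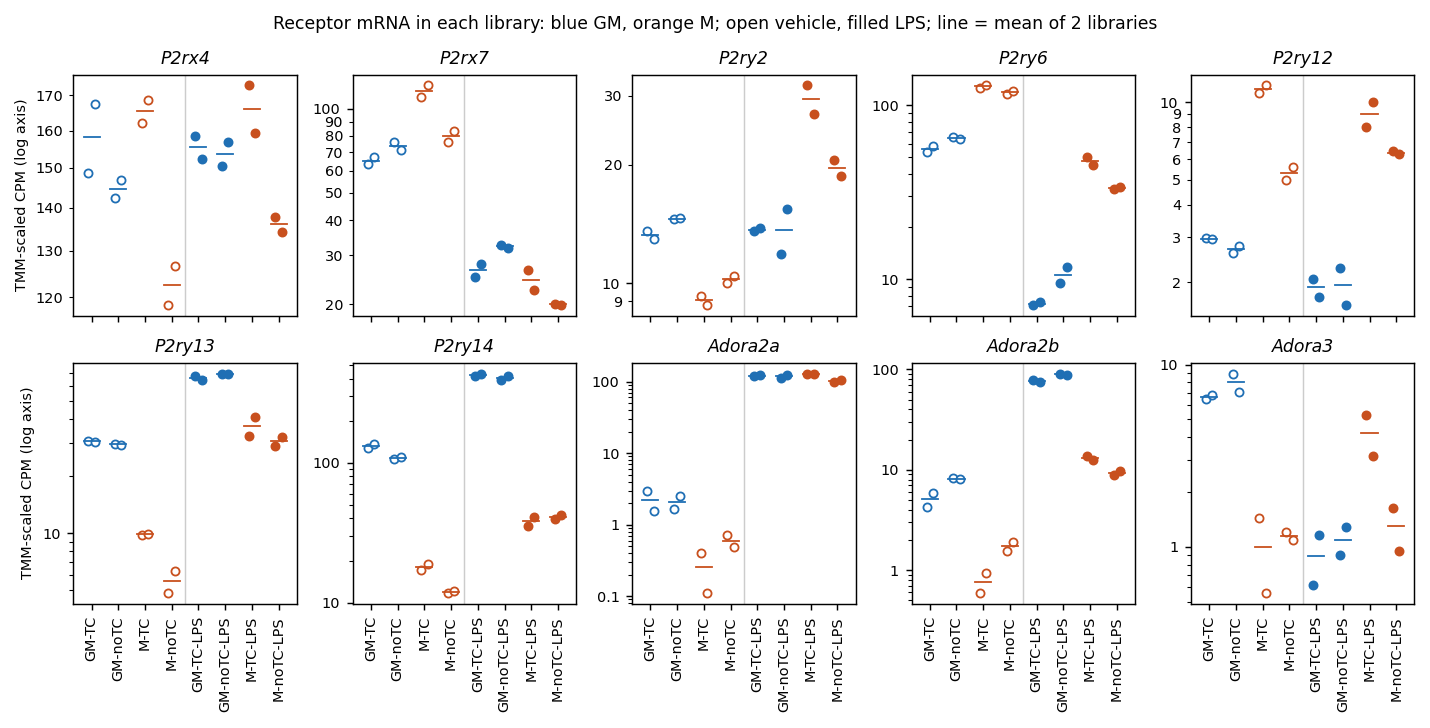
TMM-scaled CPM of the 10 receptor genes in each of the 16 libraries (y axis, log scale, a separate range in each panel) by group (x axis), with GM in blue, M in orange, vehicle as open and LPS as filled points, and a line at the mean of 2 libraries. Adora2a lies below 3 CPM in every steady state library and between 98.9 and 129.7 CPM in every LPS library, while P2ry14 and Adora2b separate GM from M in both states.

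The question of the LPS comparisons was how the challenge changed the receptors in each culture. A gene was called at an adjusted p under 0.05 from edgeR's quasi-likelihood test with Benjamini-Hochberg adjustment over the 12514 genes. In GM-TC, 8 of the 10 receptor genes were called, 4 higher and 4 lower, where 67% of all tested genes were called, 32.8% higher and 34.2% lower. In GM-noTC, 7 were called, 4 higher and 3 lower, against 67.7% of all genes, 33.6% higher and 34% lower. M-TC had 9 called, 6 higher and 3 lower, against 74%, 37.6% and 36.4% of all. M-noTC had 8, 6 higher and 2 lower, against 72.3%, 36.4% and 35.9%. Changes of over 2-fold were called for 7, 7, 8 and 6 receptor genes in the same order of cultures, where 26%, 25.8%, 35.8% and 32.2% of all genes passed. The median log2 fold change of the 10 genes was 0.01, 0.00, 1.39 and 0.60, beside -0.05, -0.03, -0.01 and -0.01 over all genes. In bulk RNA, fewer cells of a type and less RNA per cell cannot be told apart. With 2 libraries on either side the smallest p of an exact permutation test is 0.333, so the calls rest on the spread shared across genes and groups.

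**Figure D3:**
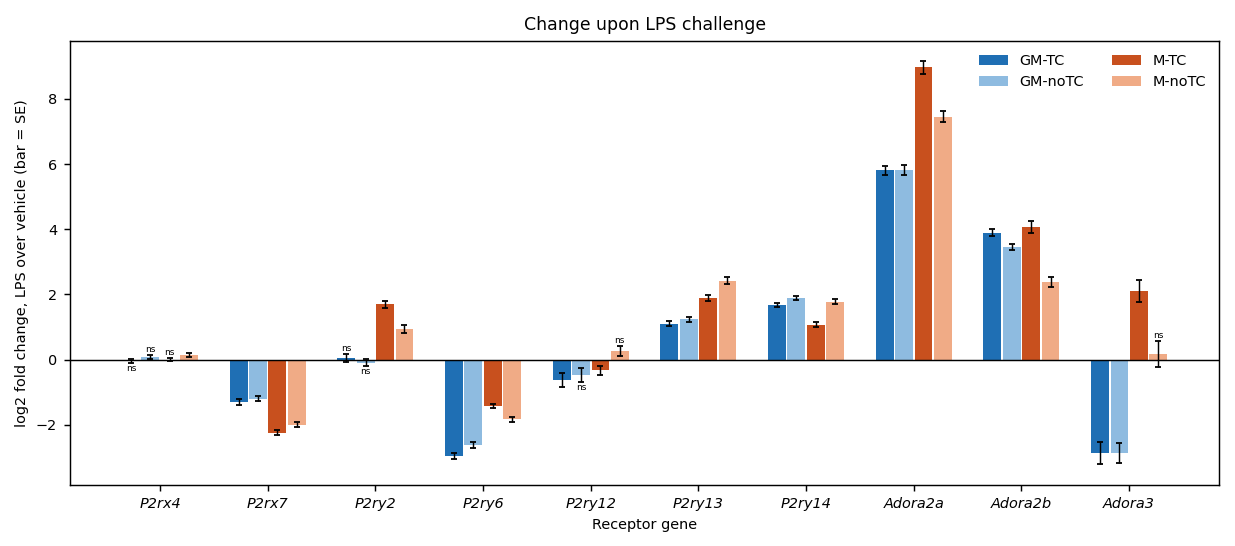
Log2 fold change upon LPS challenge (y axis) of each receptor gene (x axis) in GM and M cells on either dish, with error bars of 1 standard error from edgeR's fit and ns over values with an adjusted p of 0.05 or more. Adora2a reaches 8.97 in M-TC, P2rx7 and P2ry6 lie below 0 in all 4 cultures, and Adora3 lies at -2.87 and -2.86 in GM but at 2.10 in M-TC.

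Of the ATP-gated channels, P2rx7 fell in all 4 cultures and P2rx4 stayed within 0.15 of 0 on the log2 scale. P2rx7 was at 63.3 and 67.2 CPM in the libraries of GM-TC and 25.1 and 27.9 in GM-TC-LPS. In GM-noTC it was at 76.0 and 71.1 CPM, and with LPS at 32.5 and 31.8. M-TC held 110.4 and 121 CPM and M-TC-LPS 26.6 and 22.4, and M-noTC held 76.1 and 83.1 and M-noTC-LPS 20.0 and 20.0. Every LPS library thus lay below every steady state library. The log2 fold change in GM-TC was -1.30 with a standard error of 0.08 (adjusted p = 3.2e-12, edgeR) and -1.19 (0.08, 7.0e-12) in GM-noTC. It was -2.23 (0.08, adjusted p = 8.5e-17, edgeR) in M-TC and -1.995 (0.082, 1.1e-15) in M-noTC. The response in M minus that in GM was -0.94 on TC and -0.80 on noTC dishes (adjusted p = 7.9e-07 and 6.8e-06, edgeR). Over all genes 41.1% of these differences were called on TC and 36.2% on noTC dishes, and of the receptor genes 7 and 8.

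P2rx4, the channel that responds to lower ATP levels and lies next to P2rx7, was at 149 and 168 CPM in GM-TC and 159 and 152 in GM-TC-LPS. It was at 142 and 147 CPM in GM-noTC and 150.5 and 157 with LPS, at 162 and 169 in M-TC and 173 and 159 with LPS, and at 118 and 127 in M-noTC and 138 and 134 with LPS. Its log2 fold changes were -0.03, 0.09, 0.01 and 0.15 in that order, and only the last was called (adjusted p = 0.032, edgeR). That call was lost without either library of M-noTC-LPS or without replicate 1 of M-noTC, with adjusted p between 0.061 and 0.17. The 95% interval in GM-TC ran from -0.15 to 0.09 and in M-TC from -0.11 to 0.13. With library size only the values were -0.51, -0.42, -0.82 and -0.57, which is 0.02, 0.12, 0.01 and 0.15 above the median of all genes under that scaling.

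Among the P2Y receptors, P2ry6 fell in all 4 cultures, P2ry13 and P2ry14 rose in all 4, and P2ry2 rose in M only. P2ry6 was at 53.7 and 57.9 CPM in GM-TC and 7.13 and 7.34 in GM-TC-LPS, a 7.71-fold lower level, and at 65.9 and 64.1 in GM-noTC and 9.47 and 11.7 in GM-noTC-LPS, 6.14-fold lower. M-TC had 126 and 129.6 CPM and M-TC-LPS 50.3 and 45.1, which is 2.68-fold lower, and M-noTC had 116 and 121 and M-noTC-LPS 32.9 and 33.9, 3.54-fold lower. All LPS libraries were below all steady state libraries, and those of GM were the lowest. The log2 fold changes were -2.95 (standard error 0.09) and -2.62 (0.08) in GM and -1.42 (0.07) and -1.83 (0.07) in M, with adjusted p between 1.1e-17 and 2.2e-14 from edgeR. The fall was smaller in M by 1.53 on TC and 0.79 on noTC dishes (adjusted p = 8.3e-10 and 7.3e-06, edgeR). Within M the response on noTC minus that on TC dishes was -0.41 (adjusted p = 0.010, edgeR), a call that was lost with 4 of the 8 libraries left out in turn and with library size only (adjusted p between 0.052 and 0.082).

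P2ry2, a receptor for ATP and UTP and the neighbour of P2ry6, was at 9.29 and 8.83 CPM in M-TC and 31.8 and 26.9 in M-TC-LPS. In M-noTC it went from 10.01 and 10.5 CPM to 20.6 and 18.8. In GM-TC it was at 13.6 and 12.97 CPM and then 13.5 and 13.8, and in GM-noTC at 14.6 and 14.6 and then 11.9 and 15.4, so the GM libraries with and without LPS overlapped. The log2 fold change in M-TC was 1.70 with a standard error of 0.11 (adjusted p = 4.8e-12, edgeR), and that in M-noTC 0.94 (0.11, 8.0e-08). GM-TC and GM-noTC had 0.05 (95% interval -0.18 to 0.28) and -0.10 (-0.32 to 0.12). The response was larger in M by 1.65 on TC and 1.04 on noTC dishes (adjusted p = 2.7e-08 and 1.4e-05, edgeR), and within M noTC minus TC was -0.76 (adjusted p = 0.0027, edgeR). Without replicate 2 of GM-noTC-LPS the value in GM-noTC was -0.30 and called lower. With library size only it was -0.43 in GM-TC and -0.61 in GM-noTC, both called lower, and 0.22 in M-noTC and not called, where the median of all genes was -0.53, -0.54 and -0.73.

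P2ry13 and P2ry14, the neighbours on chromosome 3, rose together. P2ry13, a receptor for ADP, was at 30.5 and 30.4 CPM in GM-TC and 67.5 and 64.0 in GM-TC-LPS, and at 29.6 and 29.3 in GM-noTC and 69.0 and 69.4 with LPS. It was at 9.81 and 9.91 CPM in M-TC and 32.7 and 40.8 with LPS, and at 4.85 and 6.32 in M-noTC and 28.8 and 32.2 with LPS. The LPS libraries of M thus lay around the steady state level of GM. The log2 fold changes were 1.11 and 1.23 in GM and 1.89 and 2.42 in M (standard errors 0.09 to 0.11, adjusted p between 8.3e-15 and 2.5e-10, edgeR), and M exceeded GM by 0.78 on TC and 1.19 on noTC dishes (adjusted p = 1.0e-04 and 6.9e-07, edgeR).

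P2ry14, the receptor for UDP-glucose and related UDP-sugars, was the receptor with the most reads in GM upon LPS challenge. It was at 128 and 136 CPM in GM-TC and 414 and 434 in GM-TC-LPS, and at 107 and 109.8 in GM-noTC and 392 and 415 with LPS. In M-TC it was at 17.1 and 19.0 CPM and with LPS at 35.2 and 41.2, and in M-noTC at 11.8 and 12.2 and with LPS at 39.8 and 42.6. Even with LPS, the M libraries stayed below the GM libraries at steady state. The log2 fold changes were 1.68 and 1.90 in GM and 1.08 and 1.78 in M (standard errors 0.06 to 0.08, adjusted p between 3.8e-17 and 6.8e-11, edgeR). The response in M minus that in GM was -0.61 on TC dishes (adjusted p = 5.5e-05, edgeR) and -0.12 on noTC dishes (standard error 0.10, adjusted p = 0.42, edgeR). Within M the response was larger on noTC by 0.70 (adjusted p = 3.0e-04, edgeR).

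P2ry12, the ADP receptor known from platelets and microglia and the upstream neighbour of P2ry13, did not follow them. It was at 10.8 and 11.6 CPM in M-TC and 7.97 and 9.99 with LPS, and at 4.99 and 5.62 in M-noTC and 6.47 and 6.29 with LPS. GM-TC had 2.98 and 2.94 CPM and 2.07 and 1.76 with LPS, and GM-noTC 2.61 and 2.77 and 2.27 and 1.64 with LPS. The log2 fold changes were -0.63 (standard error 0.22, adjusted p = 0.014, edgeR) in GM-TC and -0.46 (0.21, 0.057) in GM-noTC. They were -0.33 (standard error 0.14, adjusted p = 0.041, edgeR) in M-TC and 0.26 (0.15, 0.13) in M-noTC. The call in M-TC was lost without either library of M-TC, without replicate 1 of M-TC-LPS and with DESeq2, and that in GM-TC without replicate 2 of GM-TC-LPS and with the libraries of the comparison only. With library size only the value in M-noTC was -0.47 and called lower, which is 0.26 above the median of all genes under that scaling. Its level was higher in M than in GM, where the summed CPM of 8 platelet and megakaryocyte markers was lower, at 7.52 to 8.80 against 42.2 to 59.0 at steady state.

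Of the adenosine receptors, Adora2a and Adora2b rose in all 4 cultures and Adora3 moved in opposite directions in GM and M-TC. Adora2a was at 2.93 and 1.53 CPM in GM-TC and 118 and 124 in GM-TC-LPS, and at 1.67 and 2.51 in GM-noTC and 114 and 125 with LPS. It was at 0.399 and 0.112 CPM in M-TC, from 10 and 3 counts, and at 127 and 129.7 with LPS. M-noTC had 0.707 and 0.488 CPM, from 21 and 21 counts, and 98.9 and 106 with LPS. The steady state libraries differed between GM and M, and the LPS libraries of all 4 cultures lay close to each other. The level was 56.1-fold higher in GM-TC-LPS and 56.5-fold higher in GM-noTC-LPS, log2 fold changes of 5.81 (standard error 0.15) and 5.82 (0.14) with adjusted p = 1.9e-19 and 1.1e-19 from edgeR. In M-TC the ratio of the summed counts was 511, with a 95% interval for counting error from 298 to 960, and the fitted log2 fold change of 8.97 (standard error 0.20, adjusted p = 9.9e-21, edgeR) became 10.09 without replicate 1 of M-TC and 8.31 without replicate 2. In M-noTC it was 7.46 (0.17, adjusted p = 1.4e-20, edgeR), and 8.66 after the subtraction described above, which lowered its 21 and 21 counts to 11 and 7. The response exceeded that of GM by 3.16 on TC and 1.64 on noTC dishes (adjusted p = 4.5e-06 and 0.00042, edgeR), with 2.51 on noTC after the subtraction and 4.27 and 2.49 on TC without replicate 1 or 2 of M-TC.

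Adora2b, the adenosine receptor of lower affinity, was at 4.29 and 5.84 CPM in GM-TC and 77.6 and 74.9 in GM-TC-LPS, and at 8.19 and 8.02 in GM-noTC and 90.9 and 88.0 with LPS. In M-TC it was at 0.598 and 0.935 CPM and with LPS at 13.6 and 12.4, and in M-noTC at 1.55 and 1.93 and with LPS at 8.83 and 9.73. The M libraries with LPS lay above the GM libraries without it and far below those of GM with LPS. The level was 14.8-fold and 11.03-fold higher in GM-TC-LPS and GM-noTC-LPS and 16.8-fold and 5.23-fold higher in M-TC-LPS and M-noTC-LPS, with log2 fold changes of 3.89 (standard error 0.11), 3.46 (0.09), 4.07 (0.18) and 2.39 (0.15) and adjusted p between 7.7e-19 and 2.8e-12 from edgeR. On TC dishes the responses of M and GM differed by 0.18 (standard error 0.26, adjusted p = 0.62, edgeR), and on noTC dishes by -1.08 (adjusted p = 0.00012, edgeR).

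Adora3, the receptor best known from mast cells of rodents, fell in GM from 6.46 and 6.80 CPM in GM-TC to 0.620 and 1.16 in GM-TC-LPS, and from 8.93 and 7.06 in GM-noTC to 0.900 and 1.28 with LPS. In M-TC it rose from 1.44 and 0.561 CPM to 5.27 and 3.14, which rests on 36 and 15 counts before and 107 and 54 after. M-noTC had 1.21 and 1.09 CPM and 1.64 and 0.948 with LPS, and these overlapped. The log2 fold changes were -2.87 (standard error 0.34, adjusted p = 1.4e-07, edgeR) and -2.86 (0.31, 4.4e-08) in GM, 2.10 (0.34, 9.5e-06) in M-TC and 0.17 (95% interval -0.59 to 0.93) in M-noTC. The responses differed between M and GM by 4.97 on TC and 3.04 on noTC dishes (adjusted p = 2.4e-08 and 7.5e-05, edgeR). Without replicate 1 of M-TC the value in M-TC was 2.91 and the difference on TC dishes 5.77. Summed CPM of 8 mast cell and basophil markers were 0.742 to 1.07 in GM and 0 to 0.0554 in M at steady state. With LPS the sums were 0.971 to 1.71 in GM and 0 to 0.0822 in M. In each GM group at steady state 4 of the 8 had no count, among them Mcpt4, Cma1 and Tpsab1. Only 1 of the 8 passed the filter, and it was called lower in M in every growth factor comparison. LPS raised this marker in GM-TC, and it was not called upon LPS challenge in any other culture. The part of such cells in the Adora3 levels was not tested.

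The growth factor comparisons asked how the receptors differ between M and GM cells on the same dish. On TC dishes at steady state, 9 of the 10 genes were called, 3 higher in M and 6 lower, where 61.5% of all genes were called, 28.9% higher and 32.6% lower. On noTC dishes 9 were called, 2 higher and 7 lower, against 62.1%, 30.7% and 31.4%. P2ry6 and P2ry12 were higher in M on both dishes, with log2 fold changes of 1.19 and 0.87 for P2ry6 (adjusted p = 6.5e-13 and 1.0e-10, edgeR) and 1.92 and 0.98 for P2ry12 (adjusted p = 6.2e-10 and 2.3e-05, edgeR). P2rx7 was higher in M on TC dishes by 0.83 (adjusted p = 1.2e-09, edgeR) and had 0.12 on noTC dishes (95% interval -0.02 to 0.25, adjusted p = 0.16, edgeR). The noTC value was called higher in a fit to the libraries compared (0.12, adjusted p = 0.026, edgeR). With library size only it was 0.41 and called higher (adjusted p = 3.0e-05, edgeR), where the median of all genes was 0.29. P2ry14 and P2ry13 were lower in M, with log2 fold changes of -2.87 and -3.17 for P2ry14 and -1.63 and -2.37 for P2ry13 and adjusted p between 1.5e-19 and 1.0e-11 from edgeR. P2ry2 was lower in M at steady state, with -0.55 and -0.51 (adjusted p = 0.00041 and 0.00033, edgeR), and both calls were lost with library size only, where the values were -0.24 and -0.22 and the median of all genes 0.29. All 3 adenosine receptors were lower in M at steady state, with -3.08 and -1.86 for Adora2a, -2.73 and -2.19 for Adora2b and -2.74 and -2.80 for Adora3 (adjusted p between 1.5e-11 and 2.6e-05, edgeR). The value of Adora2a on TC dishes rests on 13 counts in M-TC, and the ratio of summed counts was 8.57-fold lower with a 95% interval for counting error from 4.78 to 16.7. It was -4.19 and -2.41 without replicate 1 or 2 of M-TC, and on noTC dishes it was -2.73 after the subtraction. That of Adora3 on TC dishes was -3.54 without replicate 1 of M-TC.

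Upon LPS challenge, 7 of 10 genes differed between M-TC-LPS and GM-TC-LPS, 4 higher and 3 lower in M, where 66.8% of all genes were called, 32.9% higher and 33.9% lower. Between M-noTC-LPS and GM-noTC-LPS 9 differed, 3 higher and 6 lower, against 66.1%, 32.6% and 33.5%. Adora2a no longer set the cultures far apart, at 0.08 on TC dishes (standard error 0.09, adjusted p = 0.43, edgeR) and -0.22 on noTC dishes (0.09, 0.035, a call lost with library size only and without replicate 2 of GM-noTC-LPS or replicate 1 of M-noTC-LPS), while Adora2b stayed lower in M at -2.55 and -3.27 and P2ry14 at -3.48 and -3.29 (adjusted p between 1.4e-20 and 3.3e-16, edgeR). P2ry6 was higher in M by 2.72 and 1.66, P2ry12 by 2.22 and 1.70 and P2ry2 by 1.10 and 0.53 (adjusted p between 1.4e-16 and 0.00029, edgeR). Adora3 was higher in M-TC-LPS by 2.23 (standard error 0.36, adjusted p = 1.4e-05, edgeR), and at 0.24 (0.43, 0.64) on noTC dishes. The summed CPM of 8 dendritic cell markers was 1041 to 1120 in GM and 22.4 to 66.9 in M at steady state, and 795 to 866 and 19.7 to 53.1 with LPS. That of 8 neutrophil markers was 814 to 1042 and 15.6 to 18.5 at steady state and 537 to 761 and 11.9 to 13.8 with LPS. Both sums are without TMM factors, which were lower with LPS. With the factors, LPS raised 3 and lowered 2 of 6 tested dendritic cell markers in GM-TC and in GM-noTC. It raised 4 and lowered 1 of 5 tested neutrophil markers in GM-TC, and raised 3 and lowered none in GM-noTC. In M, the neutrophil markers Elane, Mpo and Ly6g were at 0 counts in all libraries, and in GM they were below 1 CPM on average in every group, with Mmp8 making up most of the sum. Of the tested dendritic cell markers 5 of 6 and of the neutrophil markers 5 of 5 were lower in M-TC than in GM-TC. The part of such cells in the receptor differences was not tested.

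**Figure D4:**
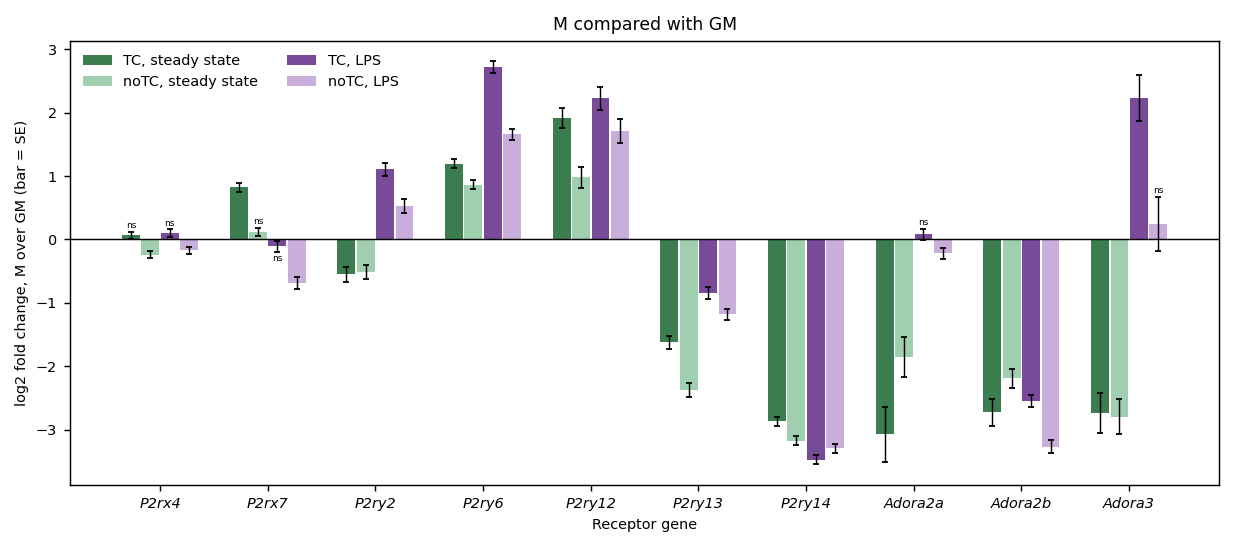
Log2 fold change of M over GM (y axis) for each receptor gene (x axis) on TC and noTC dishes, at steady state and upon LPS challenge, with error bars of 1 standard error from edgeR's fit and ns over values with an adjusted p of 0.05 or more. P2ry14 and Adora2b lie below 0 in all 4 comparisons, P2ry6 and P2ry12 above, and Adora2a goes from -3.08 and -1.86 at steady state to 0.08 and -0.22 with LPS.

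The dish comparisons asked whether the culture surface changed the receptors. In GM, 2 of 10 genes were called at steady state, where 7.54% of all genes were called, 4.69% higher and 2.85% lower. Adora2b was higher on noTC, with a log2 fold change of 0.66 (standard error 0.13, adjusted p = 0.0026, edgeR), and P2ry14 lower, with -0.29 (0.06, 0.0061). Both calls were lost in a fit to the 4 libraries compared, with adjusted p = 0.086 and 0.082 from edgeR, and that of P2ry14 also without replicate 1 of GM-noTC. Upon LPS challenge only P2ry6 was called in GM, higher on noTC by 0.55 (standard error 0.12, adjusted p = 0.0076, edgeR), against 2.8% of all genes in either direction and 2.08% higher. That call was lost without either GM-TC-LPS library or without replicate 2 of GM-noTC-LPS (adjusted p between 0.065 and 0.20).

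In M, 6 of 10 genes were called at steady state, 1 higher and 5 lower on noTC, where 27.2% of all genes were called, 16.1% higher and 11.1% lower. The lower ones were P2ry12 with a log2 fold change of -1.07 (standard error 0.14, adjusted p = 3.4e-06, edgeR), P2ry13 with -0.80 (0.13, 5.0e-05), P2ry14 with -0.59 (0.09, 2.0e-05), P2rx7 with -0.54 (0.07, 3.5e-06) and P2rx4 with -0.43 (0.06, 1.1e-05). Adora2b was higher by 1.19 (0.25, adjusted p = 0.0010, edgeR). Adora2a had a log2 fold change of 1.19 (0.54, adjusted p = 0.11, edgeR), which was -0.01 after the subtraction, and the ratio of its 42 to 13 counts was 2.30 with a 95% interval for counting error from 1.21 to 4.67. The value was 2.30 without replicate 1 of M-TC and 0.52 without replicate 2. It was called with no filter on low counts (1.19, adjusted p = 0.028, edgeR). With DESeq2 it was called at the threshold (1.18, adjusted p of 0.05 after rounding), and in the other alternatives it was not called. The 5 genes that were lower in M-noTC were at 76.1 to 127 CPM in that group for the channels and at 4.85 to 12.2 CPM for the P2Y receptors. Of 8 macrophage markers, 2 were higher and 4 lower in M-noTC than in M-TC, with summed CPM of 28468 to 29751 against 34952 to 35595. Of 6 tested dendritic cell markers 2 were higher and none lower, with sums over the list of 66.5 to 66.9 against 22.4 to 24.1. The part of these shifts in the receptor differences was not tested.

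Upon LPS challenge, 9 of 10 genes were lower in M-noTC-LPS than in M-TC-LPS, where 12.9% of all genes were called lower and 23.3% in either direction. Adora3 had a log2 fold change of -1.72 with a standard error of 0.34 (adjusted p = 0.00085, edgeR), beside -0.58 (0.10, 0.00028) for P2ry2, -0.52 (0.08, 3.3e-05) for P2ry6 and -0.49 (0.12, 0.0044) for Adora2b. For P2ry12, Adora2a, P2rx7, P2rx4 and P2ry13 it was -0.49 to -0.26 (adjusted p between 0.0017 and 0.049, edgeR), and P2ry14 had 0.11 (0.08, adjusted p = 0.32, edgeR). With 1 library left out the number called lay between 4 and 7, and it was 4 without replicate 1 of M-noTC-LPS and 5 with library size only, where P2rx7, P2ry12, P2ry13 and Adora2a were not called. Of the 8 macrophage markers, 1 was higher and 6 lower in M-noTC-LPS, with summed CPM of 19543 to 20345 against 22931 to 23919 in M-TC-LPS, and of the 6 dendritic cell markers 1 was higher and none lower, with sums of 48.3 to 53.1 against 19.7 to 21.3. Their part in the receptor differences was not tested.

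**Figure D5:**
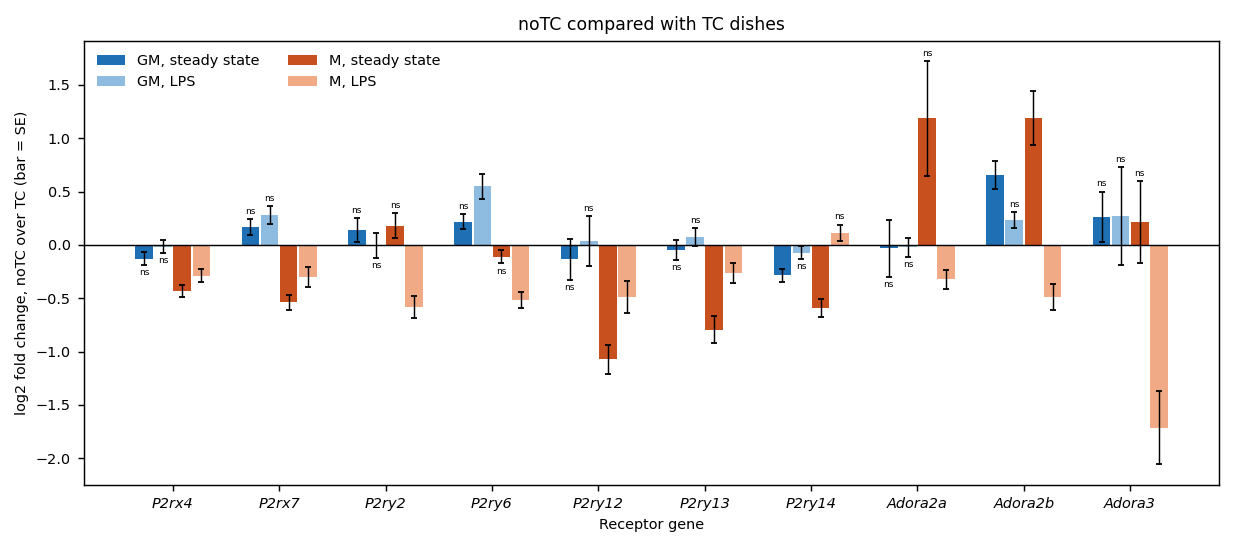
Log2 fold change of noTC over TC dishes (y axis) for each receptor gene (x axis) in GM and M, at steady state and upon LPS challenge, with error bars of 1 standard error from edgeR's fit and ns over values with an adjusted p of 0.05 or more. The M bars with LPS lie below 0 for 9 of the 10 genes, with Adora3 at -1.72, and the GM bars with a call are Adora2b at 0.66, P2ry14 at -0.29 and P2ry6 at 0.55.

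Whether the dish acted differently in M and GM was tested as a difference of differences. At steady state 5 genes differed, all with a lower value in M, where 11.2% of all genes differed and 4.82% had a lower value. They were P2ry12 (-0.94, standard error 0.24), P2ry13 (-0.75, 0.16), P2rx7 (-0.71, 0.10), P2ry6 (-0.33, 0.09) and P2rx4 (-0.30, 0.09), with adjusted p between 5.4e-05 and 0.024 from edgeR. The number was 2 without replicate 2 of GM-noTC and 3 without replicate 1 of GM-noTC, replicate 2 of M-TC or replicate 1 of M-noTC. Upon LPS challenge 5 genes differed, again all lower in M, against 10.6% of all genes that differed and 6.87% that were lower, namely Adora3 (-1.99, 0.58), P2ry6 (-1.06, 0.14), Adora2b (-0.72, 0.14), P2ry2 (-0.58, 0.16) and P2rx7 (-0.58, 0.13), with adjusted p between 1.8e-05 and 0.029 from edgeR. With 1 library left out, the value lay between -2.53 and -1.55 for Adora3 and between -0.75 and -0.38 for P2ry2. For P2rx7 it lay between -0.69 and -0.44, and the calls of these genes were lost in some of these fits. Without replicate 1 of M-TC-LPS all of these calls were lost, and P2ry13 (-0.50) was called instead. The LPS response differed between dishes for 6 genes in M, against 10.6% of all genes, with 3 left without replicate 1 of M-TC-LPS. In GM none of the 10 differed (edgeR), against 0.783% of all genes. P2ry6 (0.33), P2ry14 (0.22) and Adora2b (-0.43) had an unadjusted p under 0.05 in the same fit. The share of all genes at that looser threshold was not counted, so these values cannot be set against the 0.783%. DESeq2 also called none of the 10. For P2ry14, the dish difference in M minus that in GM at steady state was -0.30 (adjusted p = 0.076, edgeR). It was called with DESeq2 (-0.34, adjusted p = 0.039). In edgeR it was called with DESeq2's size factors, library size only, the replicate block and the subtraction (adjusted p between 0.023 and 0.046).

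The other genes of the pathway were a list of 67, of which 54 passed the filter. They are receptors, enzymes that break down nucleotides or handle adenosine, nucleoside transporters, channels that release ATP, inflammasome genes and cAMP signalling genes. Upon LPS challenge 19 rose and 27 fell in GM-TC, 21 rose and 27 fell in GM-noTC, 17 rose and 22 fell in M-TC, and 17 rose and 24 fell in M-noTC. The shares of all tested genes that rose and fell in these cultures, given above, were 32.8% and 34.2%, 33.6% and 34%, 37.6% and 36.4%, and 36.4% and 35.9%. The median log2 fold changes of the 54 were -0.24, -0.26, -0.19 and -0.33, beside -0.05, -0.03, -0.01 and -0.01 over all genes. Of 5 further tested P2X and P2Y receptors, P2ry1, another ADP receptor, fell in GM-TC from 34.2 ± 1.51 to 4.32 ± 0.191 CPM (SD, n = 2, log2 fold change -2.98, adjusted p = 5.9e-16, edgeR) and in M-TC from 24.5 ± 1.27 to 5.67 ± 1.19 (-2.12, 1.8e-13). It thus moved opposite to P2ry13. Adora1 and P2rx2 had no count in any library.

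Of the 8 inflammasome genes, 5 rose and 2 fell in GM-TC and 6 rose and 1 fell in M-TC, where 67% and 74% of all genes were called. Il1b, the cytokine precursor that the P2rx7 pathway releases, rose in GM-TC from 7.22 ± 0.148 to 6163 ± 308 CPM (SD, n = 2, log2 fold change 9.73, adjusted p = 2.1e-26, edgeR) and in M-TC from 0.940 ± 0.258 to 2102 ± 134 (11.11, 5.9e-26). In M-TC, Nlrp3 rose from 51.8 ± 1.61 to 815 ± 3.74 CPM (SD, n = 2, log2 fold change 3.97, adjusted p = 8.4e-24, edgeR). Of the 7 genes of nucleotide release, 3 rose and 4 fell in all 4 cultures. Calhm6 rose by 6.65 in GM-TC and 6.32 in M-TC, Gja1, which encodes connexin 43, by 5.68 and 6.21 (adjusted p between 7.0e-21 and 2.6e-16, edgeR), and Lrrc8a, a subunit of the volume-regulated anion channel, fell by 1.87 in M-noTC (adjusted p = 7.1e-12, edgeR). Of the 15 cAMP genes, 4 rose and 9 fell in GM-TC, and 5 rose and 7 fell in M-TC. Pde4b, a phosphodiesterase that breaks down cAMP, rose by 4.48 in GM-TC (adjusted p = 4.0e-22, edgeR), and Adcy9, an adenylyl cyclase, fell by 1.36 (adjusted p = 4.5e-07, edgeR) in GM-TC and fell by 2.23 (1.8e-11) in M-TC.

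Of 15 tested ectonucleotidases and adenosine enzymes, 5 rose and 8 fell in GM-TC and 2 rose and 7 fell in M-TC, against 67% and 74% of all genes called. Enpp4 rose from 15.6 ± 0.668 to 234 ± 24.8 CPM (SD, n = 2) in M-noTC, a log2 fold change of 3.90 (adjusted p = 1.1e-20, edgeR). Nt5e (CD73), which makes adenosine from AMP, fell from 2.10 ± 0.810 to 0.470 ± 0.139 CPM (SD, n = 2) in GM-TC (-2.14, adjusted p = 0.00025, edgeR). In M at steady state it was at 0.0399 ± 0.0564 CPM on TC and 0.0116 ± 0.0164 on noTC dishes, below the level of 3 counts. Acpp, a phosphatase that also yields adenosine, was at 157 ± 7.20 CPM in GM-TC and 1.16 ± 0.735 in M-TC (SD, n = 2), 137-fold lower in M (adjusted p = 1.9e-20, edgeR), and P2rx5 was at 9.44 ± 0.144 and 0.173 ± 0.0195 CPM, 52.8-fold lower (adjusted p = 2.2e-13, edgeR). Slc28a2, a nucleoside transporter, was higher in M, at 13.1 ± 0.867 against 1.90 ± 0.331 CPM on TC dishes (SD, n = 2, log2 fold change 2.77, adjusted p = 1.9e-13, edgeR). Between M and GM at steady state, 19 of the 54 were higher and 24 lower on TC dishes and 21 and 23 on noTC dishes, where 28.9% and 32.6% and then 30.7% and 31.4% of all genes were higher and lower. Between dishes at steady state, 5 were higher and none lower on noTC in GM, against 4.69% and 2.85% of all genes, and 3 were higher and 7 lower in M, against 16.1% and 11.1%. Entpd1 (CD39), which starts the breakdown of ATP, was lower in M-noTC than in M-TC, at 27.1 ± 1.27 against 43.0 ± 0.758 CPM (SD, n = 2, -0.66, adjusted p = 6.5e-07, edgeR). In GM the largest increase on noTC dishes was that of Il1b, from 7.22 ± 0.148 to 27.6 ± 0.376 CPM (log2 fold change 1.93, adjusted p = 1.5e-11, edgeR), a gene whose mean was 6163 CPM in GM-TC-LPS. Il1b was also higher on noTC dishes in M, at 13.2 ± 1.60 against 0.940 ± 0.258 CPM (SD, n = 2, log2 fold change 3.78, adjusted p = 1.8e-13, edgeR). What part the low-level transcripts described for the noTC libraries have in these increases was not tested.

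Patterns over the 16 libraries were compared by Pearson's r of log2 CPM. The libraries form 8 groups that share LPS, growth factor and dish, so r describes likeness only. Among the receptors, P2ry13 followed Adora2b (r = 0.91) and P2ry14 (0.89), and P2ry14 followed Adora2b (0.87). P2rx7 ran opposite to Adora2a (-0.97), and P2ry6 opposite to Adora2b (-0.95) and P2ry13 (-0.87). Of all tested genes, those most like each receptor were Aldh2, Ang and Btg2 for P2rx4 (r from 0.82 to 0.89), Rgl2, Slc46a3 and Sec14l1 for P2rx7 (0.98 to 0.99), Gsr, Rnpepl1 and Sec61a1 for P2ry2 (0.96 to 0.97) and Rab31, Csk and Aacs for P2ry6 (all 0.99). For P2ry12 they were Hpse, Pld4 and Selenop (0.97), for P2ry13 Diaph2, Gm21188 and Akirin1 (0.98 to 0.99) and for P2ry14 Slpi, Katnbl1 and mt-Nd1 (0.99). For Adora2a they were Csrnp1, Cct3 and Hdc (0.99), for Adora2b Mex3c, Dnajc1 and Serpinb2 (0.99) and for Adora3 Gadd45g, Ptger4 and Mrpl45 (0.90 to 0.93). Gpr171, which lies beside P2ry14 inside Med12l and was added after its values were seen, had 513 to 773 counts in the GM libraries at steady state, 186 to 330 with LPS and 0 to 7 in the M libraries, so it fell in GM where P2ry14 rose.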

How the data were processed

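Total RNA of 16 cultures was enriched with oligo(dT), made into libraries with a kit that does not mark strand and sequenced on an Illumina NovaSeq. The authors aligned reads with HISAT2 and quantified genes with RSEM, and the submitters' processing notes also name fastp 0.18.0, Bowtie2 2.2.8 and StringTie 1.3.1. The deposited table holds RSEM's expected counts for 22287 genes, which were rounded to whole numbers. The genome build and annotation are not given in the sources used here. Multi-mapped reads are shared out by RSEM's model, which can move counts between overlapping genes.

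Genes were filtered with filterByExpr by group, scaled with TMM and tested with edgeR 4.0.16 (R 4.3.3), by a quasi-likelihood fit to all 16 libraries with 1 coefficient per group. Of 16756 genes with a count, 12514 were tested. P-values were adjusted by Benjamini-Hochberg over these genes, and a call is an adjusted p under 0.05. Standard errors are the log2 fold change divided by the square root of F. The 12 comparisons and 6 differences of differences were refitted with DESeq2 1.42.0, other scalings, no filter, the libraries compared only, a replicate block, a subtraction and each library left out. The replicates are called biological by the study, and p-values measure the spread between these cultures. The receptor genes, the pathway and marker lists and the tests were chosen with earlier results of these data known. All receptor genes are named. From the pathway list the rule took, for LPS and, at steady state, for growth factor and dish, up to 4 called genes each way, ranked by size of change, at 1 CPM or more in a group compared. For each receptor, the 3 genes with the highest Pearson r are named. Promoter sequences are RefSeq's.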

Additional observations from a re-analysis of the deposited data

Results flagged for a closer look

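Differences between groups in the response of the 10 receptor genes were tested with 6 interaction terms in the edgeR fit, and 31 passed an adjusted p of 0.05. For growth factor by LPS these were 7 on TC and 8 on noTC dishes, against 41.1% and 36.2% of all genes. For dish by LPS they were 6 in M and 0 in GM, against 10.6% and 0.783%. For dish by growth factor they were 5 at steady state and 5 with LPS, against 11.2% and 10.6%. Values are differences between log2 fold changes with the standard error.

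The LPS response in M minus that in GM differed most for Adora3 and Adora2a. On TC dishes it was 4.97 ± 0.48 (adjusted p = 2.4e-08, edgeR) for Adora3 and 3.16 ± 0.44 (4.5e-06) for Adora2a. It was 1.65 ± 0.16 for P2ry2, 1.53 ± 0.12 for P2ry6 and 0.78 ± 0.14 for P2ry13, and -0.94 ± 0.12 for P2rx7 and -0.61 ± 0.10 for P2ry14 (adjusted p between 8.3e-10 and 1.0e-04, edgeR). On noTC dishes it was 3.04 ± 0.52 for Adora3, 1.64 ± 0.33 for Adora2a, 1.19 ± 0.14 for P2ry13, 1.04 ± 0.16 for P2ry2 and 0.79 ± 0.11 for P2ry6, and -0.80 ± 0.11 for P2rx7 and -1.08 ± 0.19 for Adora2b (adjusted p between 6.9e-07 and 0.00042, edgeR). P2ry12 had 0.72 ± 0.26 on noTC dishes (adjusted p = 0.034, edgeR), a call that was lost with DESeq2, with library size only and in 6 of 8 fits with 1 of the libraries compared left out, with adjusted p between 0.057 and 0.20.

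The LPS response on noTC minus that on TC dishes in M was -1.93 ± 0.52 for Adora3, -1.68 ± 0.28 for Adora2b, -0.76 ± 0.16 for P2ry2 and -0.41 ± 0.10 for P2ry6, and 0.70 ± 0.12 for P2ry14 and 0.53 ± 0.16 for P2ry13 (adjusted p between 3.0e-04 and 0.033, edgeR). The value of Adora3 was -2.72 without replicate 1 of M-TC, and with other libraries left out its call and those of P2ry6 and P2ry13 were lost.

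The dish difference in M minus that in GM at steady state was -0.94 ± 0.24 for P2ry12, -0.75 ± 0.16 for P2ry13, -0.71 ± 0.10 for P2rx7, -0.33 ± 0.09 for P2ry6 and -0.30 ± 0.09 for P2rx4. Upon LPS challenge it was -1.99 ± 0.58 for Adora3, -1.06 ± 0.14 for P2ry6, -0.72 ± 0.14 for Adora2b, -0.58 ± 0.16 for P2ry2 and -0.58 ± 0.13 for P2rx7 (adjusted p between 1.8e-05 and 0.029 over both states, edgeR).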

How the results depend on the processing

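Of 2130 alternative values of the 180 log2 fold changes, 1993 kept the side of the threshold and, where called, the direction. Direction was compared only where the main fit or the alternative held a call, so uncalled values that changed sign are among the 1993. A further 87 lost a call, 43 gained one and 7 were reversed, all 7 with library size only. These were P2rx4 upon LPS challenge in GM-noTC (-0.42), M-TC (-0.82) and M-noTC (-0.57), P2ry2 in GM-TC (-0.43), P2ry12 in M-noTC (-0.47), P2rx4 between M-noTC and GM-noTC (0.052) and the difference of P2rx4 between the LPS responses of M and GM on TC dishes (-0.31). Under that scaling the median of all genes moved to between -0.83 and -0.53 for LPS and to 0.29 between M and GM at steady state, which bears on these values by construction.

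Receptor genes called between dishes in GM at steady state numbered 2, and 0 with the libraries compared only and 1 to 3 with 1 library left out. With LPS there was 1, and 2 with no filter, 2 with the libraries compared only and 0 to 1 with 1 left out. Between dishes in M with LPS there were 9, and 5 with library size only and 4 to 7 with 1 left out. The LPS response differed between dishes in M for 6 (3 to 7 with 1 left out). The dish difference between M and GM held 5 at steady state (2 to 6) and 5 with LPS (8 with no filter, 3 to 6). The cause was not tested. Every other count stayed within 1.5 times.

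Samples with the same replicate number did not deviate together, with correlations of their deviations between -0.064 and 0.020 over 12 comparisons. The replicate block left 179 of 180 calls as they were and gained P2ry14 in the dish difference between M and GM at steady state (-0.31, adjusted p = 0.029, edgeR, against 0.076 without the block).

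With 2 cultures per group and 10 and 3 counts of Adora2a in M-TC, ratios against that group are imprecise.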
